A study of Mus musculus with 4 samples.

Results

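The regions described are the H3K27me3 peaks of mouse chromosome 5 that lie outside the Speer gene cluster. They were taken as the unique intervals of a control and an irradiated peak list on chromosome 5 with a midpoint below 14 Mb or from 16 Mb on (build mm10). That gave 514 of 9866 control peaks (5.21%) and 993 of 16091 irradiated peaks (6.17%), or 1507 of 25957 in all. The members were thus selected on measured values, the positions of called peaks, and 5 bins of 1 Mb, from 110 to 115 Mb, were set apart after their counts in both lists had been seen. Numbers of peaks per list are therefore given as a description, with no test. GL261 is a mouse glioblastoma cell line. The groups were GL261 cells labelled Con (control) and GL261 cells labelled IR, which the series title shows to mean irradiation. The sources used here give neither the dose nor the time after it. Each condition had 1 chromatin immunoprecipitation (ChIP) library against H3K27me3 and 1 input library, so no spread between replicates could be measured and no p between conditions is given. Peak lists hold no expression values, so the labelled line could not be checked against markers.

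H3K27me3 is histone H3 trimethylated at lysine 27. Polycomb repressive complex 2 deposits the mark, typically over the CpG-rich starts of developmental regulators that a cell keeps silent and, at lower levels, over wide stretches between active genes. In glioma the mark is known for its loss in tumours with a mutated lysine 27 of histone H3, and the complex also silences genes of neuronal differentiation. Chromosome 5 holds several classical Polycomb targets, among them the homeobox genes En2, Msx1 and Pdx1.

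Only 13 of 1686 annotated promoters (0.771%) were overlapped by a peak of any strength, 7 by a control peak, 8 by an irradiated peak and 2 by both, with 300 bases around each start taken from RefSeq (GRCm38.p6, the assembly of mm10). These promoters were poor in the dinucleotide CG, read on 1 strand since its reverse complement is itself. The 250 bases before the start held a median of 1 CG and at most 4, against a median of 7 over all 1686, of which 43.8% held at least 10 and 93.1% at least 1. CG was not counted after the start, and the peaks at Gm40275 and Cyp3a41a overlapped only bases after it. The 13 are also not independent, since the promoters of Gm21680 and Gm7347 resemble that of Gm21663 (94.9% and 74.1% identity). The promoters of Gm31160, the only one covered whole by peaks of both lists, and of Cib4, overlapped by a peak of fold 4.93 in the irradiated list alone, are shown with each CG in capitals. The predicted gene Gm26560, not shown, had an irradiated peak of higher fold than Cib4 over its promoter (5.21). Both are the 250 bases before the start on the minus strand, at chr5:137179165-137179414 and chr5:30545837-30546086.
Gm31160: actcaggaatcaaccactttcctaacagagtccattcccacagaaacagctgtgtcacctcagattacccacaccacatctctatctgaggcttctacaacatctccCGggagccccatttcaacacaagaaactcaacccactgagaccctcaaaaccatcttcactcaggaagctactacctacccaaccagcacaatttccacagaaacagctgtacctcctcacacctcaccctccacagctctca
Cib4: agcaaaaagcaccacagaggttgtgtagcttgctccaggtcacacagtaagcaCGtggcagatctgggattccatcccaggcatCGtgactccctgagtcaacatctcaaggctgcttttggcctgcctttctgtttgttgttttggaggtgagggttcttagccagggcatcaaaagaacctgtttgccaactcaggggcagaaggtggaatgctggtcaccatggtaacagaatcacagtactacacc
A further set is shown because it bears on how surely a peak can be placed. Gm21663, a predicted gene at 25.9 Mb, is the other promoter with a peak in both lists. There the irradiated peak overlapped all 300 bases, but the control peak only 3, after the start and outside the bases shown. The 250 bases of Gm21663 (chr5:25942367-25942616, minus strand) were aligned with those of 1700 other genes of the chromosome. The median identity was 49.6%, but 16 genes reached at least 70%, 8 of them inside the excluded Speer window and 8 outside it. The closest were Gm9758, inside the window (chr5:14914890-14915139, 96.8%, 6 mismatches and 2 gap bases), and Gm21680, outside it (chr5:25972646-25972895, 94.9%, 7 mismatches and 6 gap bases), both on the minus strand. Capitals mark bases that differ from, or are missing in, the aligned Gm21663 sequence.
Gm21663: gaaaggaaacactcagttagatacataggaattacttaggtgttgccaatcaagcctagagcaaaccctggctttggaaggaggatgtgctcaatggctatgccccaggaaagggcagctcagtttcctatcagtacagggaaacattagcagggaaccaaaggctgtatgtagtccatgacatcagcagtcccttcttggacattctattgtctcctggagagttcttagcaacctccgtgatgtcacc
Gm9758: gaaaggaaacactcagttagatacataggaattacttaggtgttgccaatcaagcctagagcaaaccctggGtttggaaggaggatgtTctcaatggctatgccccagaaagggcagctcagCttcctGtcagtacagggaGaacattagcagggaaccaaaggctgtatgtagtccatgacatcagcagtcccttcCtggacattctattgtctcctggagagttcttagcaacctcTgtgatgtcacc
Gm21680: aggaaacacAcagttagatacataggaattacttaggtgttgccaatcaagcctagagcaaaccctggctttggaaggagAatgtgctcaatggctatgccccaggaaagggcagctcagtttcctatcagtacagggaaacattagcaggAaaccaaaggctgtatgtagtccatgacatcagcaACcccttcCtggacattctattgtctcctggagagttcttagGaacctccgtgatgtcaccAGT
Copies of the Speer family thus also lay outside the 14 to 16 Mb window, and reads could be split or exchanged between them.

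Outside the Speer window, chromosome 5 held 1.93 irradiated peaks for each control peak (95% exact interval 1.73 to 2.15, counting error only). Over both whole lists the ratio was 1.63 (1.59 to 1.67), and in the Speer window, with 101 control and 111 irradiated peaks, it was 1.10 (0.832 to 1.45). Peaks lie in groups and are not independent, so these intervals are narrower than the true uncertainty. Control members covered 199.586 kb and irradiated members 407.616 kb, a ratio of 2.04. With equal numbers of peaks from each whole list, the strongest by p, the ratio was 1.11 (0.986 to 1.26), where the whole lists have 1 by construction.

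**Figure D1:**
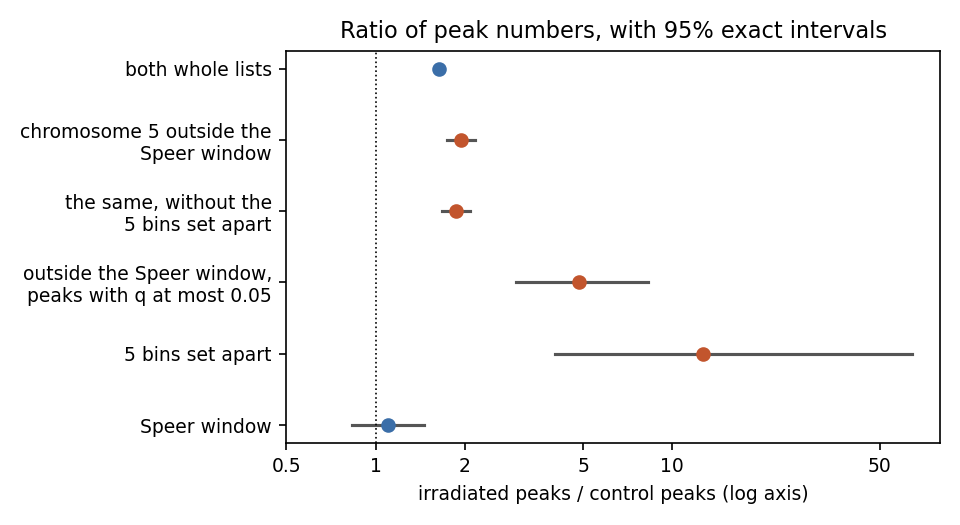
Ratio of irradiated to control peaks (log axis) with 95% exact intervals that cover counting error only; the dotted line marks equal numbers. Chromosome 5 outside the Speer window lies at 1.93, the whole lists at 1.63, the Speer window at 1.10 and the 5 bins set apart at 12.7.

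Most members were weak. The authors' q, a p adjusted over the genome, was at most 0.05 for 20 control members (3.89%, 2.39 to 5.95) against 6.84% of the whole control list. The same held for 97 irradiated members (9.77%, 7.99 to 11.8) against 15.2% of the whole irradiated list. In each list the share among members was thus below that of the whole list, and on these peaks the ratio was 4.85 (2.97 to 8.29). The whole lists had a ratio of 3.63 (3.34 to 3.96) at the same q, which lies inside the interval of the members. A like p had a higher q in the control list, so a q of 0.05 was the stricter cut there. A control peak of −log10 p 5.26 had a q of 0.0823 (Hsd17b13), and an irradiated peak of −log10 p 5.10 a q of 0.0478 (Svop). The fold enrichment at the summit, a value of the authors' caller within each list, had a median of 3.40 for control members (quartiles 2.98 and 3.75) and 3.55 for irradiated members (3.19 and 3.99). The highest folds were 6.34 and 7.41. Recovered from fold and p, the ChIP reads at a summit numbered a median of 9 and 11. Median widths were 339 and 353 bp, and 11 control and 38 irradiated peaks reached 800 bp. A peak was called over raised background where its recovered background was at least 1.5 times the lowest of its list. That was so for 47 control members (9.14%) and 246 irradiated members (24.8%), against 14.9% and 26.4% of the whole lists. The cut followed the lowest background of each list, 0.918 (control) and 0.704 (irradiated) scaled reads. Counts with and without raised background thus rest on unlike cuts between the lists. Without raised-background peaks the ratio was 1.60 among members and 1.41 over the whole lists.

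The peaks were spread unevenly along the chromosome, and both lists followed the same broad pattern. Of 150 bins of 1 Mb, 113 held a peak and 82 held peaks of both lists. The numbers per bin had a Spearman correlation of 0.775 between the lists, a description over bins that share the libraries and the mappable sequence. The 38 Mb from 17 to 55 Mb held 258 control peaks (50.2%) and 522 irradiated peaks (52.6%). The 8 Mb that followed, from 55 to 63 Mb with 4 protein-coding genes, held 0 of either list. From 63 to 78 Mb there were 133 and 194, a ratio of 1.46 (1.16 to 1.83). From 115 Mb to the end, the stretch richest in genes after the bins set apart, there were 52 and 139, a ratio of 2.67 (1.93 to 3.75). Between 78 and 88 Mb the control list was the longer, with 7 and 2 peaks. The total per bin had a Spearman correlation of 0.450 with the number of protein-coding genes.

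Peaks of 1 list alone were found in 31 bins, 13 with 17 control peaks and 18 with 49 irradiated peaks. A control bin of this kind held at most 4 peaks and an irradiated one at most 10. Of 46 bins with at least 10 peaks, 10 held at least 3 times as many irradiated as control peaks, or 21.7%, against 27.8% of 695 such autosomal bins. The reverse was found in 2 bins, or 4.35%, against 3.74%. These shares were near those of all autosomes and are no result about chromosome 5. The 10 bins together held 45 control and 258 irradiated peaks, a ratio of 5.73. Raised background was found for 46.5% of these irradiated peaks, from 11.1% in the bin of Ccdc149 (52 Mb) to 88.2% in the bin of the homeobox gene Hmx1 and the adrenergic receptor gene Adra2c (35 Mb). Without raised-background peaks, 34 control and 138 irradiated peaks were left, a ratio of 4.06.

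**Figure D2:**
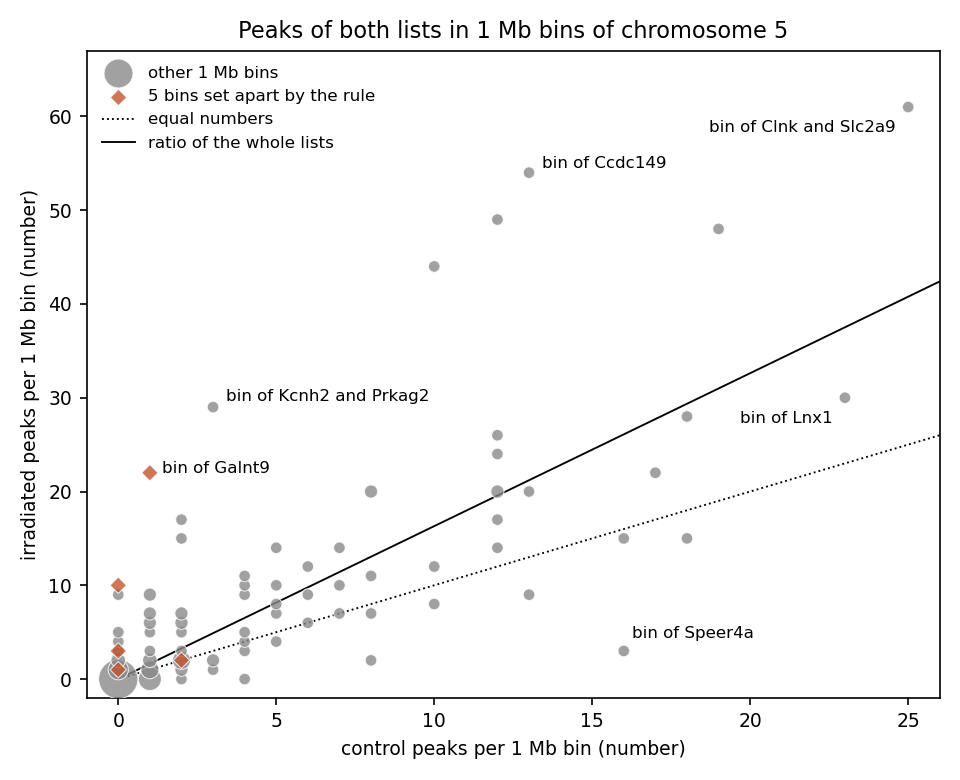
Peaks per 1 Mb bin of chromosome 5 outside the Speer window, control on the x axis and irradiated on the y axis; marker area grows with the number of bins at the same values, and lines mark equal numbers (dotted) and the ratio of the whole lists (solid). The bin of Galnt9 holds 1 control and 22 irradiated peaks, the bin of Speer4a 16 and 3.

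The lopsided bins held genes of several kinds. At 24 Mb there were 3 control and 29 irradiated peaks, the latter nearest to Prkag2, which encodes a regulatory subunit of the energy sensor AMPK, Kcnh2, which encodes a cardiac potassium channel, and Nub1. At 30 Mb there were 10 and 44, around Cib4, Dpysl5, a gene of growing axons, and the potassium channel gene Kcnk3. At 35 Mb there were 2 and 17, and at 36 Mb, around the neuronal sorting receptor gene Sorcs2, 2 and 15. At 37 Mb, around Stk32b and Msx1, there were 12 and 49, and at 52 Mb, around Ccdc149 and Lgi2, 13 and 54. The bins at 120 Mb, with Rbm19 and Lhx5, and at 135 Mb, with Fkbp6, each held 1 and 9. The 2 bins in the other direction, 26 Mb with 16 control and 3 irradiated peaks and 145 Mb with 8 and 2, both held multicopy genes, of the Speer family and of Cyp3a41a and Cyp3a41b. Not every bin with such copies had this direction: that at 25 Mb, with Gm21663 and Gm21680, held 12 and 26.

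In the 5 Mb set apart, 3 control and 38 irradiated peaks were listed, an irradiated share of 92.7% (80.1 to 98.5). Of the 38, 20 lay over raised background (52.6%), against 24.8% of all irradiated members. Without raised-background peaks, 2 control and 18 irradiated peaks were left, a share of 90.0% (68.3 to 98.8). The part of the background in the difference was not tested beyond this count. A q of at most 0.05 was reached by 1 control and 5 irradiated peaks.

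A run of 23 peaks from 110463212 to 110634246 made up more than any other stretch of these bins. It lay upstream of and across Galnt9 (110544032 to 110621383), which encodes a brain-expressed enzyme that starts O-linked glycosylation. The irradiated list had 22 peaks there, with folds from 2.45 to 4.74 and a median of 3.49, and 10 of the 22 had a raised background. The control list had 1, at 110467728 to 110468011, with a fold of 2.58, 12 reads and a q of 1. No peak of the run overlapped between the lists. The strongest irradiated one, at 110504615 to 110504928, had 16 reads (fold 4.74, q 0.0157) and lay 39.1 kb before the gene. Inside Galnt9 or within 2000 bp there were 5 irradiated peaks, the best of them at a fold of 4.16 (q 0.0536).

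The other peaks of these bins were scattered. Dao, which encodes D-amino acid oxidase, an enzyme that degrades the neuromodulator D-serine, had 4 irradiated peaks, 3 of them inside the gene, the strongest at 114017123 to 114018158 (fold 4.56, q 0.0351). Its neighbour Svop, which encodes a synaptic vesicle protein, had 1, just outside the gene (fold 4.19, q 0.0478), over a background of 1.62 scaled reads. That peak lies between both genes and is also the fourth of Dao. A group of 5 irradiated peaks from 114510509 to 114525889 lay between Mvk and Fam222a, at best with a fold of 5.14 (q 0.0119). Sez6l, a gene of the seizure-related family, had 2 irradiated peaks and the myosin gene Myo1h 1, all over raised background. The only site of both lists was intergenic, 262 kb from Mn1, and the control peak was the stronger, at fold 4.36 (q 0.0366) against 3.46 (q 0.276).

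Peaks of both lists were chained into groups where gaps were at most 50 kb. That gave 354 groups, of which 172 were single peaks. The 26 groups with at least 15 peaks spanned 70.4 to 371 kb and held 193 control peaks (37.5%) and 457 irradiated peaks (46.0%). The irradiated list had more peaks in 25 of them. The groups were picked by the peaks of both lists together, and the irradiated list is the longer, with 993 members against 514. The same count was not made over the genome, so it is no result about these groups. The largest by number lay at Lnx1 (74633669 to 74909869), with 22 control and 28 irradiated peaks. At Zfp518b and Clnk (38575157 to 38860659) there were 17 and 29, of which 3 and 19 lay in Clnk or within 2000 bp. The group at Stk32b, Cytl1 and the homeobox gene Msx1 (37650216 to 38020904) held 10 and 34, and that at Insig1, En2 and Cnpy1 (27975867 to 28305320) held 10 and 30. The group at Sod3, Ccdc149 and Lgi2 (52255366 to 52601703) held 9 and 31. A group at Otof, the deafness gene of the inner hair cell synapse, and Cib4 (30430782 to 30575149) held 1 and 19, 13 of the 19 over raised background.

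The exception was the group at Speer4a (26029314 to 26221820), with 13 control and 3 irradiated peaks, none overlapping. All 3 irradiated peaks there had a raised background. A neighbouring group at Gm21663 (25902420 to 25972861) held 8 and 9, with 4 sites in both lists and 0 irradiated peaks over raised background. The strongest irradiated member, at 25944977 to 25946229 (fold 7.41, 21 reads, q 1.12e-06), lay in that group. The control list had a peak at the same site of fold 5.15 (15 reads, q 0.00382). From 25.9 to 26.3 Mb, 21 control and 12 irradiated peaks were listed, and 5 of the 20 control members with a q of at most 0.05 lay there, as did 5 of the 97 irradiated ones. These are the genes whose promoters resemble that of Gm21663, so the assignment of each peak to 1 copy is uncertain. Without this stretch, chosen after its values were seen, the ratio of the members was 1.99 (1.78 to 2.22).

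Of the control members, 76 (14.8%, 11.8 to 18.2) shared 1 bp or more with an irradiated peak, against 21.4% of the whole control list. Of the irradiated members, 76 (7.65%, 6.08 to 9.49) overlapped a control peak, against 13.3%. The upper bounds lay below the shares of the whole lists, but the intervals cover counting error only and are too narrow for grouped peaks. The whole lists include the members and also the Speer window, where 74.3% of control and 67.6% of irradiated peaks overlapped. Among members with a q above 0.05 the shares were 14.2% and 6.92%, against 18.6% and 10.3% over the whole lists. With a q of at most 0.05 they were 30.0% (6 of 20) and 14.4% (14 of 97), against 59.0% and 29.6%.

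The 76 sites paired 1 to 1. The ratio of irradiated to control fold had a median of 1.15 (quartiles 1.01 and 1.31) and was above 1 in 57 of 76 pairs. The lists were scaled separately. At the lowest background of each list the lowest folds called were 2.78 and 3.19, a ratio of 1.14, while over all members, raised backgrounds included, they were 2.26 and 2.33. Both q were at most 0.05 in 3 pairs: one at Gm31160 and a pair of sites near Gm21663. At Gm31160 the control fold was 6.34, with 18 reads and a q of 2.00e-05, the strongest control member, and the irradiated fold was 5.46, with 15 reads and a q of 0.00171. At Cplx1, which encodes complexin 1, a regulator of synaptic vesicle fusion, the control fold was 5.15 (15 reads, q 0.00382) and the irradiated fold 3.19 (8 reads, q 0.537), the lowest fold ratio of the pairs with a q of at most 0.05 in either list, at 0.619. At a site in Shroom3 the order was the other one, with folds of 3.43 and 4.81.

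**Figure D3:**
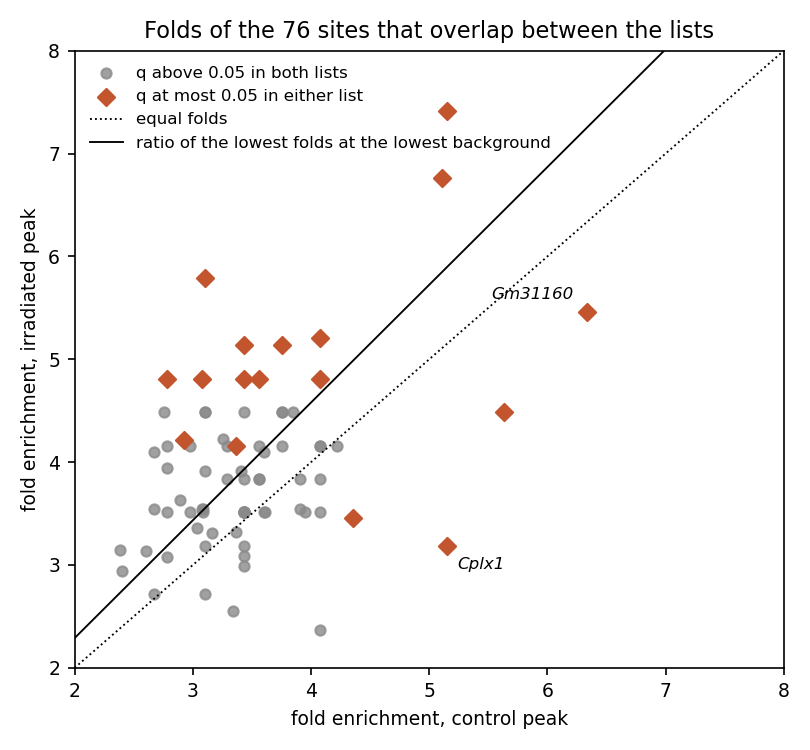
Fold enrichment of the 76 overlapping sites, control on the x axis and irradiated on the y axis; diamonds have a q of at most 0.05 in either list, and lines mark equal folds (dotted) and the ratio of the lowest folds called at the lowest background of each list, 1.14 (solid). Points scatter on both sides of the solid line; Cplx1 (5.15 and 3.19) and Gm31160 (6.34 and 5.46) lie below both lines.

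Members lay mostly away from gene starts. The median distance to the nearest annotated start was 29.1 kb for control and 22.5 kb for irradiated members, against 34.5 kb and 26.0 kb over the whole lists. Within 2 kb of a start lay 26 control (5.06%) and 41 irradiated (4.13%) members, against 3.88% and 4.48% of the whole lists. Outside any annotated gene lay 57.0% and 47.2%, against 57.5% and 52.0%. In a protein-coding gene or within 2000 bp of it lay 163 control members (31.7%, 27.7 to 35.9) and 429 irradiated members (43.2%, 40.1 to 46.4), against 31.9% and 38.1% of the whole lists. Irradiated members had a nearest neighbour of their own list at a median of 5.77 kb and control members at 14.5 kb, against 4.21 and 10.7 kb over the whole lists.

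A gene was counted as marked where a peak of any strength lay in it or within 2000 bp, which is a listed peak and not a domain of the mark. Of the 1268 protein-coding genes of chromosome 5, 11 of which lie inside the excluded window, a control member marked 81 (6.39%, against 6.05% of all genes) and an irradiated member 128 (10.1%, against 8.19%). Both lists marked 56 (4.42%, against 3.67%), the control list alone 25 (1.97%, against 2.38%) and the irradiated list alone 72 (5.68%, against 4.53%). The shares were close to those of the genome. Genes of both lists had a median length of 101 kb, those of the irradiated list alone 45.4 kb, those of the control list alone 26.1 kb and unmarked genes 20.1 kb. Of the 56 genes in both lists, 37 held more irradiated peaks, 5 more control peaks and 14 equal numbers. The irradiated list is the longer (993 members against 514) and this split was not counted over all genes, so it is no result about these genes. Only 20 of the 56 held an overlapping pair, and in 8 the strongest peaks of both lists overlapped.

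The most peaks were held by Lnx1 (74592447 to 74703043), which encodes a ubiquitin ligase of the Notch regulator Numb. It held 10 control peaks with folds from 2.78 to 4.17 and 15 irradiated peaks with folds from 2.36 to 5.46, and 2 of the control peaks overlapped an irradiated one. Clnk, which encodes an adaptor of immunoreceptor signalling, held 3 and 19. Slc2a9, which encodes a urate transporter, held 1 and 15, and the actin regulator gene Limch1 held 2 and 13. Tgfbr3, the gene of the TGF-beta co-receptor betaglycan, held 4 and 14 with no overlap. Ccdc149, which encodes a coiled-coil protein, held 3 and 12. Cracd, which encodes an inhibitor of actin capping, held 5 and 11, with 1 control peak (fold 4.72, q 0.0157) and 2 irradiated peaks (highest fold 5.06, q 0.0119) at a q of at most 0.05, at different sites. Ppargc1a, the gene of the mitochondrial coactivator PGC-1alpha, held 5 and 10, and Cux1, which encodes a homeodomain protein, 4 and 10. Dpp6, which encodes an auxiliary subunit of neuronal potassium channels, held 7 and 9. Every one of these 10 genes held more irradiated than control peaks. They were ranked by the peaks of both lists together, most of which are irradiated, so this direction is no result about them. With equal numbers of peaks from the whole lists the order turned for Lnx1, Dpp6, Ppargc1a and Cux1.

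**Figure D4:**
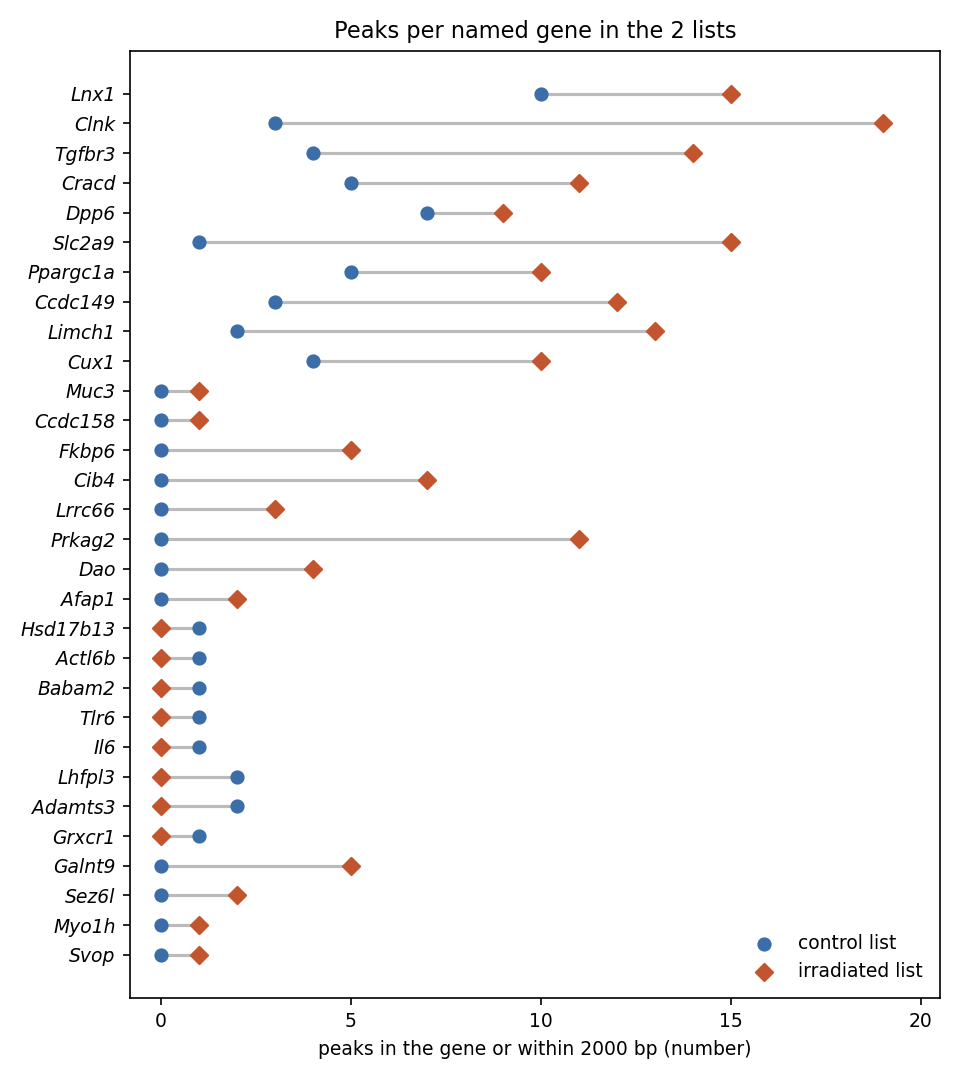
Number of peaks in or within 2000 bp of each named gene, control list as circles and irradiated list as diamonds; from the top, the 10 genes with the most peaks, 8 genes of the irradiated list alone, 8 of the control list alone and the remaining genes of the 5 bins set apart. Clnk holds 3 control and 19 irradiated peaks and Prkag2 0 and 11, of which 2 are left without raised-background peaks.

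Of the 72 genes of the irradiated list alone, 42 held 1 peak and 10 had a peak with a q of at most 0.05. Prkag2 held the most, 11, the strongest of fold 4.38 (q 0.0147), but that peak and most others had a raised background. Without such peaks Prkag2 held 2, fewer than Galnt9 and Fkbp6 (4 each) and Cib4 and Lrrc66 (3 each). Muc3, which encodes an intestinal mucin, had 1 peak, with the highest fold of the 8 genes named by lowest q, 5.48 (18 reads, q 0.0022). It lies close to Gm31160, the site of the strongest control member. Cib4, of the calcium and integrin binding family, held 7, the strongest over the promoter shown above (30545672 to 30545950, fold 4.93, 16 reads, q 0.0119). Fkbp6, which encodes an immunophilin of meiotic cells, held 5, the strongest of fold 4.81 (q 0.0119). Lrrc66 held 3 and Ccdc158 1, both with a lowest q of 0.0119, and Afap1, which encodes an actin filament-associated protein, held 2, with a lowest q of 0.0457. Absence from the control list says only that no control peak was called there.

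Of the 25 genes of the control list alone, 22 held 1 peak, the most was 3, and 0 had a q of at most 0.05. That q is a stricter cut on p in the control list than in the irradiated list. With only peaks of −log10 p of at least 5 in both lists, 3 genes were of the control list alone and 40 of the irradiated list alone. The lowest q belonged to Hsd17b13, a gene of hepatic lipid droplets, at fold 4.40 (12 reads, q 0.0823). Actl6b, which encodes a neuronal subunit of the BAF remodelling complex, reached a fold of 3.57 (q 0.278) over a raised background. Tlr6, a Toll-like receptor gene, and Babam2, which encodes a subunit of a BRCA1 complex, had folds of 4.08. The cytokine gene Il6 had a fold of 3.75 for a peak 0.713 kb from its start and outside the gene, so that it was not marked with windows of 0 or 500 bp. Lhfpl3 and Adamts3, which encodes a procollagen protease, held 2 each, and Grxcr1, a hair-cell gene, had 1 over its start of fold 3.43 (q 0.831). The strongest peak of each of these 8 genes had 9 to 13 reads.

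The 8 genes of both lists with the lowest q, read from the weaker list, were Spata18, Cracd, Plb1, Ppargc1a, Lnx1, Nwd2, Shroom3 and Hfm1. Spata18, which encodes a protein of mitochondrial quality control, had a control fold of 4.72 (q 0.0157) and an irradiated fold of 4.67 (q 0.0128), at different sites. Plb1, a phospholipase gene, held 6 and 8 peaks, with folds of 4.30 (q 0.0436) and 3.92 (q 0.0536). Nwd2 was 1 of 5 genes with more control peaks, 5 against 3. Shroom3, which encodes an actin-binding protein of epithelial bending, held 5 and 8, and Hfm1, a meiotic helicase gene, 1 and 1. In none of these 8 genes did the strongest peaks of both lists overlap.

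Gene lists were read for how many members were marked, beside 6.39% and 10.1% of all genes of the chromosome. Of 28 embryonic transcription factor genes, control peaks marked 2 and irradiated peaks 4. Ldb2, which encodes a cofactor of LIM-homeodomain proteins, had 1 and 3 peaks (highest folds 2.98 and 4.10), and Hopx 1 and 1. Gbx1, a homeobox gene, and Pdx1, the pancreatic regulator, were marked in the irradiated list alone, the latter over a raised background, and neither was marked with equal numbers of peaks from the whole lists. En2, Msx1 and Shh, classical targets of Polycomb, had no peak in the gene or within 2000 bp. In a window of 100 kb, chosen after the data were seen, 11 and 21 of the 28 had a peak, against 35.3% and 46.6% of all genes. En2 had 6 control and 18 irradiated peaks in that window, Msx1 4 and 14, Hopx 6 and 13, and Mnx1 7 and 7.

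Among 16 ligands and growth factor genes, control peaks marked 1 and irradiated peaks 3. Bmp3, a bone morphogenetic protein gene, had 1 and 2 peaks, with highest folds of 2.67 and 4.16. Slit2, an axon guidance gene, had 1 irradiated peak (fold 4.16, q 0.0536), and Fgfbp1, which encodes a carrier of fibroblast growth factors, 1 (fold 2.55). Shh had 4 control and 5 irradiated peaks within 100 kb. Of 12 receptor genes of the tyrosine kinase and Frizzled families, Kdr, the receptor gene of vascular endothelial growth factor, and Flt3, a receptor gene of blood progenitors, were marked in both lists, each with 1 control and 4 irradiated peaks. Pdgfra and Kit, receptor genes often amplified in glioma, had no peak within 2000 bp, and 3 and 2, and 3 and 3, within 100 kb.

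Synaptic and axonal genes had the largest gap between the lists, with 4 of 27 marked by control and 14 by irradiated peaks. The 10 marked in the irradiated list alone were Adam22, Lgi2, Galnt9, Sez6l, Svop, Ksr2, Nos1, Rph3a, Tmem132b and Tmem132c, and 3 of these lie in the 5 Mb set apart. Magi2, which encodes a synaptic scaffold, held 3 and 6 peaks, and its strongest, in the irradiated list at 20491281 to 20491660, had 16 reads (fold 5.79, q 0.00171). Lgi2, of the LGI family of secreted neuronal proteins, Ksr2, a kinase scaffold gene, and Rph3a, which encodes rabphilin, held 3 irradiated peaks each. Adam22, the receptor gene for LGI proteins, and Nos1, the neuronal nitric oxide synthase gene, held 1 each, with a fold of 3.55. Svop was the only one of the 10 with a q of at most 0.05, and it has a raised background. The genes of this list were chosen with earlier results of these data known, and long genes are frequent among them. Galnt9 was counted among them although it encodes an enzyme of O-linked glycosylation.

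Of 17 neurotransmitter receptor and channel genes, 4 and 5 were marked. Htr5a, a serotonin receptor gene, was marked in the irradiated list alone, with 2 peaks, the stronger (fold 3.97, q 0.0478) over a raised background. Gabrb1, a GABA receptor subunit gene, and Cnga1, the rod photoreceptor channel gene, had 1 and 1 each, and Kcnip4 2 and 2. Among 18 leukocyte genes the control list marked more, 7 against 5. Txk and Tec, neighbouring kinase genes of lymphocytes, held 1 and 5, and 2 and 2 peaks, and Prom1, which encodes CD133, a surface marker used for stem-like glioma cells, held 3 and 5 (highest folds 3.40 and 3.98). The genes of this list marked in the control list alone were Il6 and Tlr6, each by 1 peak with a q of 0.385. The 5 genes marked in both lists also included Clnk, with 3 and 19 peaks, and Flt3, with 1 and 4.

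Several gene families of the chromosome had few or no peaks. The 13 chemokine genes, 16 interferon-induced genes, 10 vomeronasal receptor genes, 13 DNA damage response genes and 4 beta crystallin genes had 0 marked members in either list. With 6.39% and 10.1% of all genes marked, a count of 0 in lists this short is no result about them. Of 26 liver genes, Cyp3a41a, a cytochrome gene, was the only one marked, by a control peak of 7 reads and a q of 1, in a family of near-identical copies. Of 14 casein, enamel and bone matrix genes, Enam, the enamelin gene, was the only one marked, with 1 control and 2 irradiated peaks. Within 100 kb, control peaks lay near 9 of the 13 chemokine genes and irradiated peaks near 3, but neighbours in these clusters share the same few peaks.

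Just outside the threshold of the rule, the nearest control peaks lay at 14914401 to 14915109, with 28 reads and a fold of 6.12, and at 15949784 to 15950170, with 7 reads and a fold of 2.78. The nearest control members inside it were at 10029859 to 10030142, with 10 reads, and at 17404794 to 17405197, with 8 reads and a fold of 3.11. In the irradiated list the nearest excluded peaks had folds of 4.49 and 9.69, and the nearest members, at 8126614 to 8126915 and 17468167 to 17468445, had folds of 3.55 and 4.76. The latter lies 7.68 kb from Speer4f1 and had 24 reads over a background of 2.00 scaled reads.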

How the data were processed

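H3K27me3 ChIP-seq was analysed from 2 of the 4 libraries of the series, the peak lists of control and irradiated GL261 cells. BWA, deepTools and mm10 are named in the submitters' processing notes. The sources used here name no peak caller and no use of the input. Per library, the authors deposited each peak's position and summit (other values, in bp), a score that is 10 times the −log10 p without its decimals, a fold (a ratio over background), and −log10 p and −log10 q values. The largest p in the deposited lists was 0.00495 (control) and 0.00499 (irradiated).

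Lines with a further summit of an interval (215 and 679) were merged, keeping the highest. ChIP reads and background were recovered from fold and p under a Poisson model, for 100% of lines within 0.01. Of 1874 control and 1812 irradiated peaks simulated under the same model, 100% were returned right. This checks the calculation only and cannot show that the unnamed caller used this model. Lowest backgrounds were 0.918 and 0.704 scaled reads. Library totals are unknown, so no depth is given. Intervals are exact (Clopper-Pearson, 95%) and cover counting error only. Shared means an overlap of at least 1 bp.

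Genes, starts and promoters came from RefSeq tables of GRCm38.p6, and 214 of 217 entries of 13 gene lists matched. Named genes (predicted genes left out) were the 10 with the most peaks, 8 per class (irradiated alone, control alone, both) by lowest q, those of the set-apart bins, and up to 4 per list. Promoters were aligned globally (Biopython 1.88). Members, lists and rules were chosen with earlier results of these data known. Python 3.11.15, pandas 2.3.3 and scipy 1.17.1 were used. Peak sequences were not used here.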

Additional observations from a re-analysis of the deposited data

How the results depend on the processing

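With 1 library per condition, no library could be left out, and no paired analysis was possible because no group had replicates. The ratio of irradiated to control members, 1.93, was 4.85 with a q of at most 0.05 (whole lists 3.63), 5.42 with a −log10 p of at least 5 (whole lists 4.03), 1.11 with equal numbers of peaks and 1.60 without raised background; the irradiated list was the longer under each of these. The control peaks overlapping an irradiated peak, 14.8%, were 9.34% with equal numbers, 7.59% with a reciprocal overlap of 50% and 24.3% within 1000 bp. The irradiated peaks overlapping a control peak, 7.65%, were 3.09% with a q of at most 0.05, 2.43% with a −log10 p of at least 5, 3.93% with the reciprocal overlap and 13.6% within 1000 bp. Genes in both lists, 56, were 5 with a q of at most 0.05 and 8 with a −log10 p of at least 5. Genes of the control list alone, 25, were 2 and 3 under these, and genes of the irradiated list alone, 72, were 23 and 40, and 43 with equal numbers and 47 without raised background. Bins of 1 list alone, 31, were 16 at 2 Mb and 4 at 5 Mb. The irradiated share of the set-apart bins lay between 83.3% and 92.9% in all settings run. The lowest share, with a q of at most 0.05, had an interval of 35.9 to 99.6. With a −log10 p of at least 5 it was 87.5% (47.3 to 99.7). These bins were set apart on this same contrast, so the range is no support for it.

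Irradiated minus control peaks turned negative for Plb1, and from 0 for Cplx1, with a q of at most 0.05, a −log10 p of at least 5 or equal numbers (-1 each). With equal numbers it was also negative for Lnx1 (-2), Dpp6 (-3), Ppargc1a (-1), Cux1 (-1), Flt3 (-1) and, from 0, Tec (-1), and Gbx1, Pdx1, Sez6l, Myo1h and Fgfbp1 were no longer marked. Without raised background, Afap1, Sez6l, Myo1h, Svop, Pdx1, Fgfbp1 and Actl6b were no longer marked, and the difference went from 11 to 2 for Prkag2, 7 to 3 for Cib4, 4 to 2 for Dao, 14 to 9 for Slc2a9 and 5 to 3 for Lnx1. With a gene window of 0 bp Svop was not marked, and with 5000 bp Fgfbp1 was marked in both lists. The cause of these changes was not tested. Leaving out 25.9 to 26.3 Mb was chosen after seeing the data. A median of 9 and 11 reads supports a member, and the effect of depth on the lists was not tested.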
